A study of Mus musculus with 12 samples.

Results

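Ly6d, Aqp4, Cgref1, Prss8, Uap1l1 and Tbc1d30 are 6 genes, of 55401 in the deposited mouse liver count table and 16523 tested, that were chosen by their large rise on a methionine- and choline-deficient (MCD) diet and because none belongs to the usual liver pathways. The 4 groups, of 3 libraries each, were cre mice on MCD diet, flox mice on MCD diet, cre mice on control diet and flox mice on control diet. All mice were C57BL/6, labelled male, with a listed age of 6 to 8 weeks, and carried LPCAT3flox/flox alleles. Whether that age is the one at the start of the diet is not stated here. The cre mice carried cre as well (genotype LPCAT3flox/flox-cre), and the promoter that drives it is not given in the sources used here. Lpcat3 encodes an enzyme that loads polyunsaturated fatty acids onto lysophospholipids. The MCD diet was fed for 8 weeks to model steatohepatitis, and all mice fasted for 12 h before liver was taken. Nothing in the labels says that the 3 libraries of a group came from separate animals, so p-values measure the spread between libraries, which may be technical.

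The 6 genes encode proteins of unlike kinds. Ly6d is a small lipid-anchored surface protein of the Ly6/uPAR family, best known from early B cell progenitors and from squamous epithelium. Aqp4 is a water channel, known above all from the end-feet of astrocytes and also from gastric parietal cells and skeletal muscle. Prss8 (prostasin) is a membrane-anchored serine protease of epithelia that works together with matriptase (St14) and raises the activity of the epithelial sodium channel. Cgref1 is a calcium-binding protein with EF hands, named for its effect on cell growth. Uap1l1 is the paralog of Uap1, the enzyme that makes UDP-N-acetylglucosamine at the end of the hexosamine pathway. Tbc1d30 carries a TBC domain, the domain by which a large protein family speeds the inactivation of Rab GTPases in membrane traffic.

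The genes lie on 6 different chromosomes, all on the minus strand, in mm10 coordinates of the deposited tables. Ly6d is at chr15:74762056-74763620, Cgref1 at chr5:30933143-30945591, Prss8 at chr7:127925716-127930104, Uap1l1 at chr2:25359889-25365682 and Tbc1d30 at chr10:121263820-121351278. Each is annotated as protein coding, and each symbol stood on 1 row.

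A window of the RefSeq promoter table (build GRCm38.p6) is printed here for 1 of the 6 genes, Cgref1. Windows on the chromosome of Aqp4 were not considered for printing. The window runs from 250 bases before to 50 bases after a RefSeq start, chr5:30945431-30945730 on the minus strand. It is shown as the DNA around the start of a gene that was nearly silent on the control diet. The deposited coordinates place the start of Cgref1 at 30945591, inside the window, so part of the window lies within the gene as deposited. Capitals mark the motifs found by a search of both strands.
Cgref1 promoter: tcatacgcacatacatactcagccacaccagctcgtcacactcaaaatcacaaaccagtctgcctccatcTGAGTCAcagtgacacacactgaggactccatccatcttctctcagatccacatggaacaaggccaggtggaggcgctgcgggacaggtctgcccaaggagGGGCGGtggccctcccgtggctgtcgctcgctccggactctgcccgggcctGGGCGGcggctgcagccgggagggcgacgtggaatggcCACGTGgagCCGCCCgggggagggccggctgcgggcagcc
Of its bases 65.3% were G or C, against a median of 52.7% over 32851 mouse promoters. The AP-1 motif TGANTCA occurred 1 time, starting at base 71, and 7.81% of all promoters hold it. The E-box CACGTG occurred 1 time, at base 261, and is held by 7.15% of promoters. The GC box GGGCGG occurred 3 times and is held by 35.7% of promoters. The CARE motif TGATGNAA (in 3.97% of promoters), the antioxidant motif TGACNNNGC (12.4%) and the TATA box TATAAA (13.6%) were not in this window. No 2 of the matches overlapped. The AP-1 match lies before the deposited start of Cgref1, and the E-box and GC box matches lie within the gene as deposited. A second RefSeq start of Cgref1, whose window overlaps this one, held the same motifs.

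Libraries totalled 40883986 to 65516723 estimated counts, of which a single ribosomal RNA gene took 43% in flox control 1, which stands apart, and 5.6% to 19.2% in the others. Lpcat3 had 16.1 to 23.3 CPM (library-size-scaled counts, with TMM factors) in 5 cre libraries and 41.4 to 63.4 CPM in all 6 flox libraries. The library labelled cre MCD 3 had 56.1 CPM, a level that goes against its label. Fold changes of the 6 genes in cre MCD mice are therefore given with and without that library. Xist stood at 116 to 685 CPM and the Y-linked genes at 0 in all 12 libraries, although the labels say male. Liver identity was plain, with summed hepatocyte markers such as Alb at 89000 to 101000 CPM in cre MCD, 49400 to 69400 CPM in flox MCD, 68100 to 90400 CPM in cre control and 57900 to 112000 CPM in flox control libraries.

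On the MCD diet all 6 genes stood above every control diet library, in both genotypes. This is what they were chosen by, so the diet values are a description and carry no test. Among all tested genes 2.64% were called higher and 2.63% lower on MCD in flox mice, and 3.73% higher and 3.04% lower in cre mice (edgeR quasi-likelihood test, Benjamini-Hochberg adjusted p under 0.05). All 6 genes were past that threshold in both, which their choice fixed, and nothing is read from that count. The median log2 fold change of the 6 was 3.39 in cre mice and 4.70 in flox mice, where the median over all tested genes was near 0. Ordered by the fitted log2 fold change among 16523 genes, the 6 held places 152 to 279 in cre mice and 141 to 719 in flox mice. That order includes genes at 0 in a control group, such as Ly6k in flox mice (8.25), whose fitted values depend on the prior count of the fit. Without the library labelled cre MCD 3 the log2 fold changes in cre mice were 4.67 for Ly6d, 3.52 for Aqp4, 3.18 for Cgref1, 3.55 for Prss8, 3.25 for Uap1l1 and 2.88 for Tbc1d30. Without flox control 1 those in flox mice were 5.39 for Ly6d, 5.29 for Aqp4, 5.27 for Cgref1, 4.06 for Prss8, 4.07 for Uap1l1 and 1.56 for Tbc1d30.

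**Figure D1:**
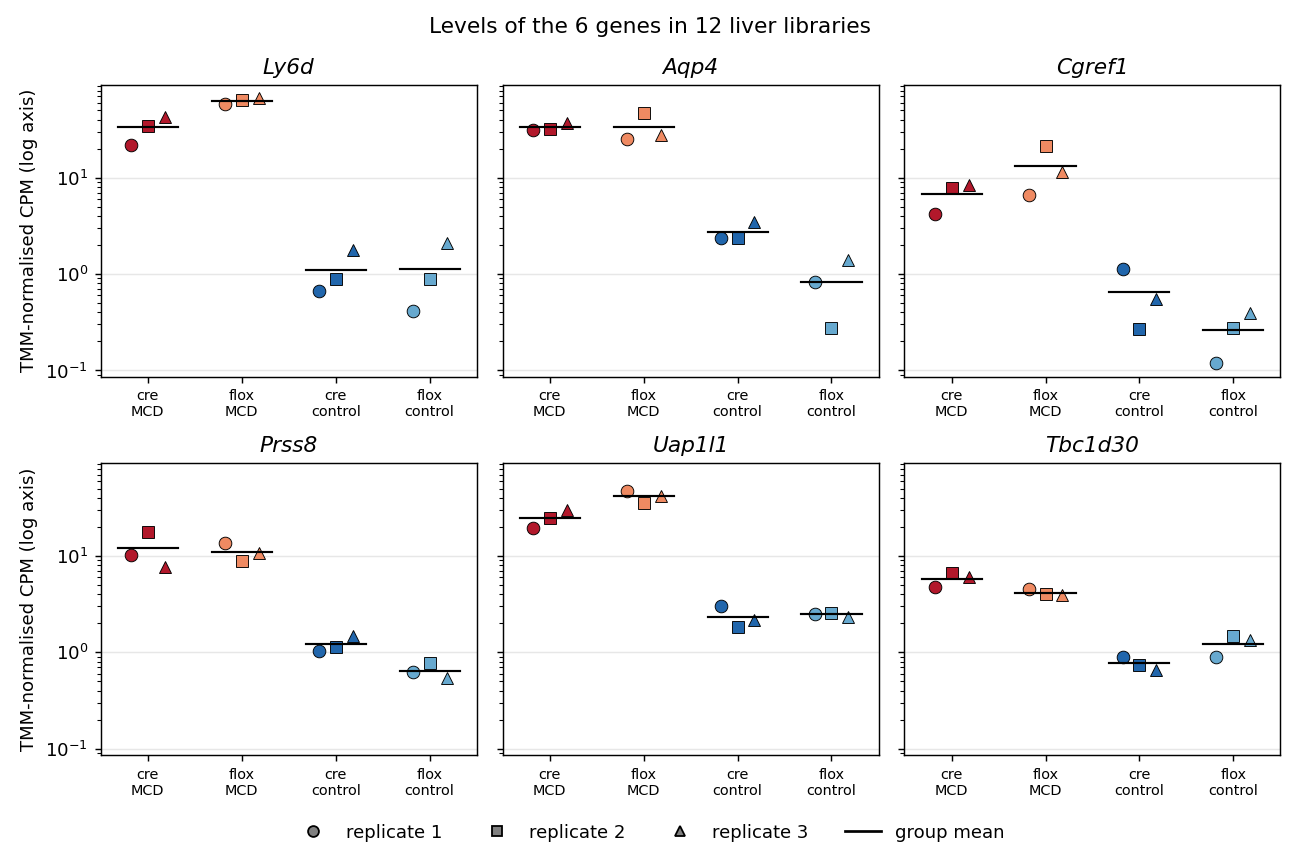
TMM-normalised CPM (log axis) of the 6 genes in each of 12 libraries, grouped as cre MCD, flox MCD, cre control and flox control; symbols mark the replicate and lines the group mean of 3. In every panel the 6 MCD libraries stand above the 6 control diet libraries, and the gap is widest for Ly6d and narrowest for Tbc1d30.

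Ly6d rose most in cre mice and in flox mice, from a level close to absent. Its level was 22.0, 34.5 and 43.1 CPM in cre MCD libraries, 58.1, 64.2 and 66.8 CPM in flox MCD libraries, 0.673, 0.896 and 1.77 CPM in cre control libraries and 0.415, 0.893 and 2.09 CPM in flox control libraries. The lowest MCD library, cre MCD 1, was 10.5 times the highest control library. The fitted log2 fold change was 4.90 ± 0.51 in cre mice and 5.77 ± 0.52 in flox mice (SE, n = 3 per group). Per transcript length, Ly6d was the highest of the 6 in every MCD library, at 4.17 to 6.48 times the FPKM (fragments scaled for transcript length and library size) of the next gene. All of it was assigned to 1 transcript of 3 exons, since the annotation lists no other.

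Aqp4, at chr18:15389496-15410982, was raised to much the same level in both MCD groups. Its level was 31.1, 31.7 and 37.0 CPM in cre MCD libraries, 25.0, 46.9 and 27.7 CPM in flox MCD libraries, 2.39, 2.39 and 3.43 CPM in cre control libraries and 0.830, 0.275 and 1.40 CPM in flox control libraries. The cre and flox libraries on MCD overlapped, while on the control diet all 3 cre libraries stood above all 3 flox libraries. Its log2 fold change on MCD was 3.60 ± 0.41 in cre mice and 5.30 ± 0.46 in flox mice (SE). Fold changes from the flox control level rest on 12 to 67 estimated counts per library.

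Prss8 reached like levels in both genotypes on MCD. Its level was 10.3, 17.9 and 7.75 CPM in cre MCD libraries, 13.6, 8.90 and 10.8 CPM in flox MCD libraries, 1.02, 1.13 and 1.46 CPM in cre control libraries and 0.623, 0.779 and 0.543 CPM in flox control libraries. Here cre MCD 2 was the highest library and cre MCD 3 the lowest of the 6 on MCD. The log2 fold change was 3.31 ± 0.33 in cre mice and 4.09 ± 0.35 in flox mice (SE). Kat8, a histone acetyltransferase gene on the opposite strand, overlaps the 3′ end of Prss8, and whether the counting used strand is not given in the sources used here. Kat8 itself had log2 fold changes of 0.02 in cre mice and -0.01 in flox mice on MCD (adjusted p 0.973 and 0.99), with 304 to 760 estimated counts per library.

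Cgref1 spread most widely of the 6 among MCD libraries. Its level was 4.15, 7.88 and 8.48 CPM in cre MCD libraries, 6.59, 21.6 and 11.5 CPM in flox MCD libraries, 1.14, 0.269 and 0.555 CPM in cre control libraries and 0.119, 0.275 and 0.397 CPM in flox control libraries. The 6 MCD libraries spanned 5.19-fold, with flox MCD 2 highest and cre MCD 1 lowest, and the genotypes overlapped. The log2 fold change was 3.36 ± 0.55 in cre mice and 5.59 ± 0.62 in flox mice (SE), the flox value from a control level of 4 to 19 estimated counts per library.

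Uap1l1 varied least of the 6 among control diet libraries, which spanned 1.64-fold. Its level was 19.5, 25.0 and 30.0 CPM in cre MCD libraries, 47.1, 35.4 and 41.9 CPM in flox MCD libraries, 2.99, 1.82 and 2.17 CPM in cre control libraries and 2.52, 2.57 and 2.34 CPM in flox control libraries. The 3 cre MCD libraries lay below the 3 flox MCD libraries, and the control libraries of the genotypes overlapped. The log2 fold change was 3.41 ± 0.24 in cre mice and 4.07 ± 0.25 in flox mice (SE).

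Tbc1d30 had the smallest rise and the lowest FPKM of the 6 in every MCD library. Its level was 4.76, 6.58 and 5.99 CPM in cre MCD libraries, 4.50, 4.08 and 3.90 CPM in flox MCD libraries, 0.905, 0.746 and 0.656 CPM in cre control libraries and 0.889, 1.47 and 1.34 CPM in flox control libraries. It was the single gene of the 6 whose diet difference was larger in cre mice, with log2 fold changes of 2.90 ± 0.29 in cre mice and 1.75 ± 0.28 in flox mice (SE). Its lowest MCD library was 2.66 times its highest control library.

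Within each group the libraries were set against the group mean of log2(CPM + 1) for each of the 6 genes. Library cre MCD 1 was below its group mean in all 6 genes, cre MCD 2 and cre MCD 3 were each above it in 5, and cre control 2 was below it in all 6. In the flox groups no library was above or below the mean in more than 4 of the 6. The cre MCD mean includes the library labelled cre MCD 3, and how often all tested genes follow the same order was not counted. Nothing is therefore read from these counts.

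The genotype question, whether loss of Lpcat3 changes these genes in fatty liver, was asked on each diet. On MCD none of the 6 was called between cre and flox mice, where 0.0121% of all tested genes were called. Ly6d averaged 33.2 ± 10.6 CPM in cre MCD mice and 63.0 ± 4.43 CPM in flox MCD mice (SD, n = 3 each), a log2 fold change of -0.92 (95% interval -1.82 to -0.02, edgeR adjusted p 0.581). Uap1l1 averaged 24.9 ± 5.25 CPM in cre MCD and 41.4 ± 5.87 CPM in flox MCD mice, a log2 fold change of -0.74 (interval -1.20 to -0.27, adjusted p 0.321). For both, all 3 cre libraries stood below all 3 flox libraries, an order that 9.42% of all tested genes shared. Tbc1d30 stood higher in all 3 cre libraries (log2 fold change 0.47, interval -0.09 to 1.04, adjusted p 0.699), as did 8.13% of all tested genes.

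For the other genes on MCD, as for Tbc1d30, the intervals took in 0. Cgref1 had a log2 fold change of -0.95 (interval -1.99 to 0.09, adjusted p 0.661), and -0.41 without flox MCD 2. Aqp4 had 0.00 (interval -0.79 to 0.79, adjusted p 1) and Prss8 had 0.11 (interval -0.53 to 0.74, adjusted p 0.967). Differences inside these intervals remain possible with 3 libraries a group. Larger ones can also go uncalled, since Uap1l1 was not called with an interval clear of 0. Without the library labelled cre MCD 3 the log2 fold changes were -1.16 for Ly6d, -0.90 for Uap1l1, -1.13 for Cgref1, 0.45 for Tbc1d30, 0.34 for Prss8 and -0.08 for Aqp4, again with none called. The sign of Aqp4 turned there, and those of Aqp4 and Prss8 turned in other fits as well. The cre MCD means of the 2 remaining libraries were then 28.3 CPM for Ly6d, 22.3 CPM for Uap1l1, 6.02 CPM for Cgref1, 5.67 CPM for Tbc1d30, 14.1 CPM for Prss8 and 31.4 CPM for Aqp4.

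On the control diet none of the 6 was called between the genotypes either, where 0.0424% of all tested genes were called. Aqp4 was 2.74 ± 0.60 CPM in cre control and 0.835 ± 0.563 CPM in flox control mice (SD, n = 3 each), a log2 fold change of 1.70 (95% interval 0.80 to 2.60, edgeR adjusted p 0.445). With DESeq2 in place of edgeR the same difference was 1.69 with an adjusted p of 0.0202, so its call depends on the test. Over all alternatives its adjusted p ran from 0.0202 to 0.999. Prss8 had a log2 fold change of 0.89 (interval 0.17 to 1.62, adjusted p 0.657). For Aqp4 and Prss8 all 3 cre libraries stood above all 3 flox libraries, as for 5.76% of all tested genes, and none of the 6 genes had the opposite order, which 5.01% of all tested genes had. Cgref1 had 1.28 (adjusted p 0.698), which was 0.60 without cre control 1 and 1.70 without flox control 3. The value was -0.68 (adjusted p 0.676) for Tbc1d30, -0.08 (adjusted p 0.971) for Uap1l1 and -0.06 (adjusted p 0.993) for Ly6d. Without flox control 1 the values were -0.43 for Ly6d, 1.69 for Aqp4, 0.965 for Cgref1, 0.86 for Prss8, -0.08 for Uap1l1 and -0.87 for Tbc1d30, again with none called. The signs of Ly6d and Uap1l1 turned under some alternatives, Ly6d to 0.74 without flox control 3.

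The diet effect in cre mice minus that in flox mice was negative for 5 genes and positive for Tbc1d30. The libraries are those that chose the genes, so this is a description of the same values. The differences on the log2 scale were -0.87 for Ly6d, -1.70 for Aqp4, -2.23 for Cgref1, -0.78 for Prss8, -0.65 for Uap1l1 and 1.15 for Tbc1d30. With 1 library left out they ran from -1.66 (without flox control 3) to -0.34 (without cre control 3) for Ly6d, from -2.35 (without flox control 3) to -1.26 for Aqp4, from -2.65 to -1.55 for Cgref1, from -1.20 (without cre MCD 2) to -0.55 for Prss8, from -0.82 to -0.41 (without cre control 1) for Uap1l1 and from 1.03 to 1.35 for Tbc1d30. None was called (edgeR adjusted p 0.482 to 0.696), where 0.00605% of all tested genes were. Nothing is read from that count, since the same libraries chose the genes. Over all tested genes and before adjustment, p was under 0.05 for 1376 genes between genotypes on MCD, for 1190 on the control diet and for 1483 in the difference of the diet effects.

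**Figure D2:**
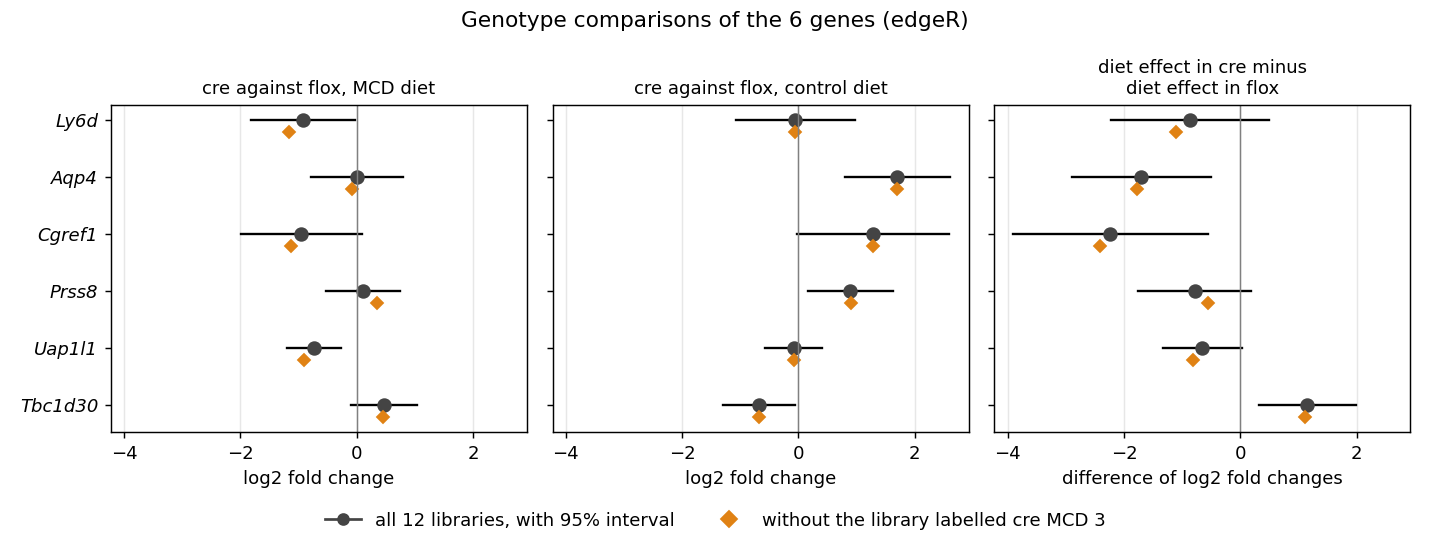
edgeR log2 fold changes of the 6 genes between cre and flox mice on MCD, between cre and flox mice on the control diet, and the diet effect in cre minus that in flox, with 95% intervals over 12 libraries (circles) and the value without the library labelled cre MCD 3 (diamonds). On MCD Ly6d and Uap1l1 lie below 0 and Aqp4 at 0, on the control diet Aqp4 lies highest at 1.70, and no value passed the adjusted threshold.

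The authors' transcript estimates of Aqp4, Prss8, Uap1l1 and, less widely, Tbc1d30 were divided differently in different libraries. Aqp4 has 12 listed transcripts, 6 of them above 0 in some library. On the control diet the 5-exon transcript ENSMUST00000079081 took at least 72.6% of the gene's FPKM in every library. On MCD the 4-exon transcript ENSMUST00000238946 was above 0 in all 6 libraries and took 14.7% to 99.9%, and in cre MCD 2, cre MCD 3 and flox MCD 2 the 5-exon transcript was listed at 0. The split followed single libraries and not the genotype. The part that the transcript model plays in it was not tested.

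Prss8 was assigned wholly to ENSMUST00000032988 in 11 of the 12 libraries. In the library labelled cre MCD 3, 68.2% was assigned to ENSMUST00000206124, which was listed at 0 elsewhere. The 2 transcripts have the same coding exons and differ by an intron of 143 bases in the 5′ UTR, chr7:127929914-127930056. Uap1l1 was carried by its 9-exon coding transcript at 73.3% to 91.5% on MCD, against 29.0% to 88.5% on the control diet. There it took 82.2% and 88.5% in flox control 2 and flox control 3 but 29.0% in flox control 1 and 31.0% to 38.9% in the cre control libraries, and a non-coding transcript took up to 65.5%. Cgref1 stayed at 97.9% or more on 1 coding transcript in every library, and Tbc1d30 on its 12-exon coding transcript at 70.8% or more on MCD and 96.1% or more on the control diet.

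**Figure D3:**
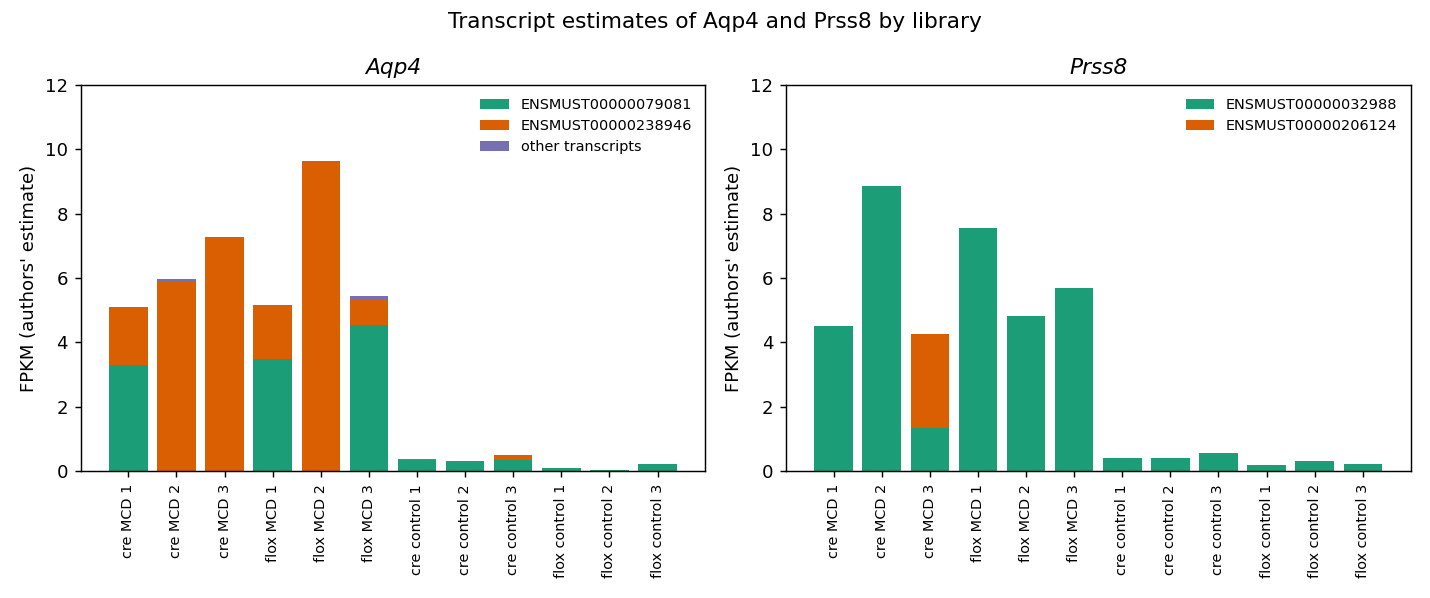
Stacked FPKM of transcripts of Aqp4 and Prss8 in 12 libraries, as estimated by the authors, with groups from cre MCD to flox control. The 2 main Aqp4 transcripts trade places between single MCD libraries of both genotypes, and the second Prss8 transcript is above 0 in the library labelled cre MCD 3 alone.

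Most tested relatives of the 6 genes were not called on diet, which does not show that they were unchanged. Among all tested genes 3.73% were called higher and 3.04% lower in cre mice, and 2.64% higher and 2.63% lower in flox mice. The lists below were chosen with earlier results of these data known and are counted without the 6 genes. Of 5 tested aquaporins, 2 were called higher in cre mice and 1 in flox mice, with median log2 fold changes of 0.24 and -0.21. Aqp7, a channel for glycerol, rose on MCD to 0.859, 1.36 and 1.97 CPM in cre mice, against 0 to 0.239 CPM on the control diet, and to 3.39, 3.54 and 4.73 CPM in flox mice, against 0 to 0.267 CPM. Its log2 fold change was 3.67 in cre mice (adjusted p 0.0482) and 5.58 in flox mice (adjusted p 0.00894). The flox call held in all fits, though its flox control level rests on 0 to 9 estimated counts and the fitted value was 10.7 without flox control 1. The cre call was lost in 8 of the 12 fits that each left out 1 library, being lost without any of the 3 cre control, the 3 flox MCD, cre MCD 2 or cre MCD 3. Aqp1, a water channel of vessels and bile ducts, rose by 1.10 in cre mice (adjusted p 0.0465), a call lost without any cre control library, flox control 2, flox MCD 1, flox MCD 3, cre MCD 2 or cre MCD 3, and in the FPKM fits without a filter. Aqp9, the main hepatocyte channel for glycerol, had 0.15 in cre mice and -0.35 in flox mice, and neither passed.

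Of 13 tested Ly6/uPAR genes, 1 was called lower in cre mice, and 1 higher and 1 lower in flox mice. Ly6k, which lies beside Ly6d, was listed at 0 in all 6 control diet libraries and had 5 to 16 estimated counts in cre MCD and 10 to 81 in flox MCD libraries. Its level averaged 0.187 CPM in cre MCD and 0.746 CPM in flox MCD mice, where 3 counts over the flox control group are 0.024 CPM. The flox call (adjusted p 0.0332) was lost without flox MCD 1, flox MCD 3, cre MCD 2 or any flox control library. Ly6g2 fell by 1.10 in flox mice (adjusted p 0.00938), a call lost without flox MCD 1 and in the fits of FPKM values, where the value was -0.54 to -0.55. Cd59a, an inhibitor of complement, fell by 0.72 in cre mice (adjusted p 0.043), a call lost without any cre control or flox MCD library, cre MCD 2 or cre MCD 3, without a filter on low counts, and in the fits of FPKM values, where it was -0.36 to -0.37. The family's median log2 fold change was 0.51 in cre and 0.42 in flox mice.

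Around Prss8, 14 membrane serine proteases, their inhibitors and sodium channel subunits were tested. In cre mice 1 was called higher and 1 lower, and in flox mice none higher and 1 lower. Over all alternatives 1 to 2 were called higher in cre mice and 0 to 7 in flox mice. Scnn1a, the pore subunit of the sodium channel that Prss8 acts on in epithelia, went the other way from Prss8. It fell to 1.53, 0.440 and 0.268 CPM in cre MCD libraries, against 9.21, 7.13 and 8.89 CPM in cre control libraries, and to 0.934, 0.492 and 0.439 CPM in flox MCD libraries, against 8.89, 7.49 and 6.42 CPM in flox control libraries. The groups did not overlap, and the log2 fold changes were -3.52 (adjusted p 0.00187) and -3.61 (adjusted p 0.00143) in cre and flox mice, calls that held in all fits. Tmprss2, another membrane protease, rose by 2.28 in cre mice (adjusted p 0.00932) and had 1.38 in flox mice (adjusted p 0.0798). St14, the matriptase that Prss8 works with, had 1.04 in cre and 0.91 in flox mice, and neither passed. The list's median was 0.12 in cre and 0.17 in flox mice.

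Of 17 hexosamine pathway genes, 2 were called higher in each genotype and none lower, with medians of 0.35 in cre and 0.25 in flox mice. Over all alternatives 1 to 2 were called higher in cre mice and 2 to 7 in flox mice. Pgm3, which makes the direct precursor for Uap1, rose to 17.3, 27.6 and 28.2 CPM in cre MCD libraries, against 8.66, 6.18 and 7.09 CPM in cre control libraries. In flox mice it rose to 18.8, 20.7 and 19.7 CPM on MCD, against 9.75, 4.56 and 5.45 CPM on the control diet. Its log2 fold changes were 1.73 (adjusted p 0.00319) and 1.58 (adjusted p 0.00474) in cre and flox mice, and both calls held in all fits. Renbp, an epimerase of N-acetylglucosamine, rose by 1.16 in cre mice (adjusted p 0.0425) and 1.61 in flox mice (adjusted p 0.00862), and the cre call was lost without flox control 2, cre control 2, cre control 3, flox MCD 1, flox MCD 3, cre MCD 2 or cre MCD 3, and in the fits of FPKM values. Uap1 itself, the paralog of Uap1l1, stood at 14.4 to 21.7 CPM in cre MCD, 15.1 to 15.2 CPM in flox MCD, 17.3 to 21.0 CPM in cre control and 19.9 to 22.9 CPM in flox control libraries. Its log2 fold changes of -0.05 and -0.47 in cre and flox mice did not pass, and their signs turned, in flox mice in the fits of FPKM values and in cre mice without cre control 1 or without the library labelled cre MCD 3.

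Of 37 other TBC-domain genes, 1 was called higher in cre mice and none in flox mice, with medians of -0.14 in cre and 0.14 in flox mice. Over all alternatives 0 to 3 were called higher in cre mice and 0 to 5 in flox mice. Tbc1d31, a centrosomal protein, rose by 1.17 in cre mice (adjusted p 0.0297; lost without cre MCD 1, cre MCD 2 or any cre control library) and had 1.05 in flox mice (adjusted p 0.0504). None of 23 growth arrest and p53 target genes, set beside Cgref1, was called in either genotype in the main fit (medians 0.08 in cre and 0.11 in flox mice). Over all alternatives 0 to 1 were called higher in cre mice and 0 to 7 in flox mice. Ei24, the one with the highest level, had 0.08 in cre and -0.26 in flox mice.

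**Figure D4:**
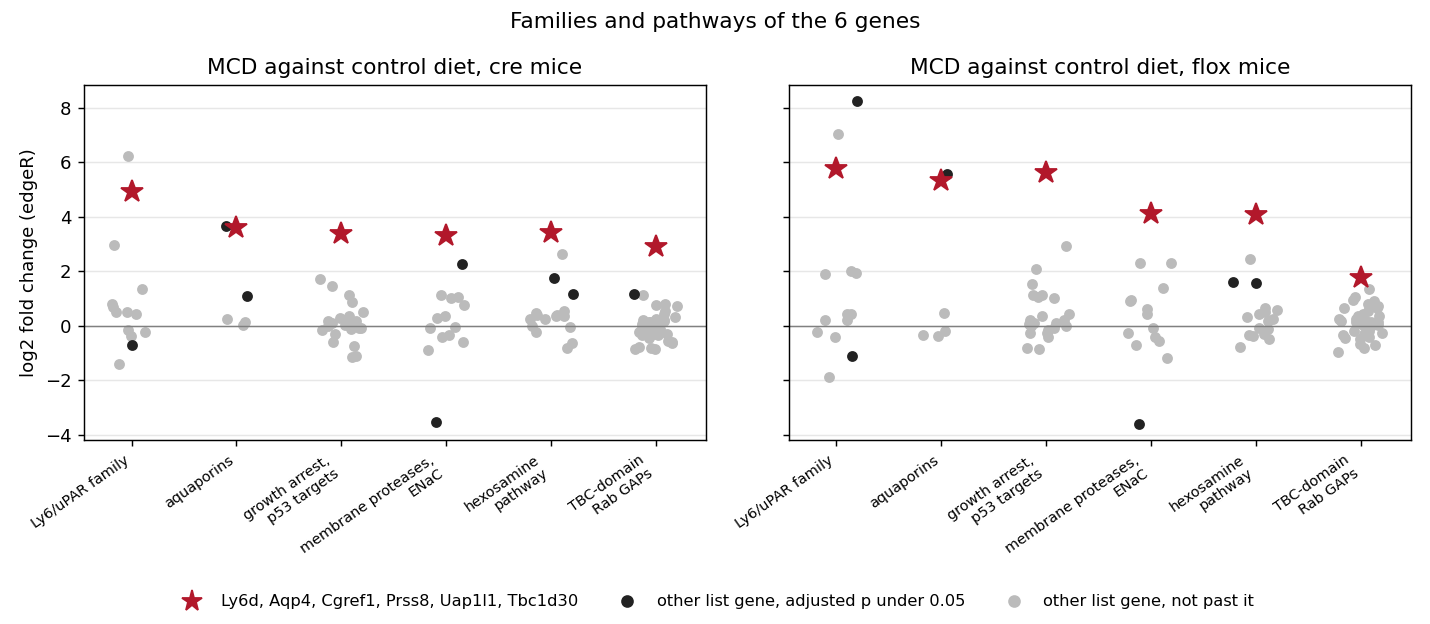
edgeR log2 fold changes on MCD in cre mice and in flox mice for the tested genes of 6 families and pathways, with the 6 genes as stars, other genes past an adjusted p of 0.05 in black and the rest in grey. The stars lie above most of their relatives, but the 6 genes were chosen by this rise, so nothing is read from that. Scnn1a is the black dot near -3.5. Dots of genes at 0 in a control group, such as Ly6k in flox mice at 8.25, depend on the prior count of the fit.

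The 3 nearest tested genes on each side of the 6 genes gave 36 neighbours, of which 2 (5.56%) were called higher and none lower in cre mice, and 4 (11.1%) higher and 1 (2.78%) lower in flox mice, against 3.73% higher and 3.04% lower, and 2.64% higher and 2.63% lower, of all tested genes. The median log2 fold change of the neighbours was 0.56 in cre and 0.26 in flox mice. The neighbours ran from Kat8, which overlaps Prss8, to Dsc2, 4620 kb from Aqp4, so the shares are not all local. With 1 library left out, the count called higher in flox mice ran from 0 to 4. The highest estimated count of the 3 other overlapping genes, Gm50048 at Aqp4 and Gm48435 and Gm4478 at Tbc1d30, was 9. Rassf3, beside Tbc1d30, rose by 1.06 in cre mice (adjusted p 0.00646), a call that held in all fits, and had 0.40 in flox mice. In flox mice Them6 and Ly6k beside Ly6d, Emilin1 beside Cgref1 and Dpp7 beside Uap1l1 were called higher (1.62, 8.25, 0.85 and 1.01). Cdh2, 1180 kb from Aqp4, was called lower there (-0.89). In cre mice Llph, 1030 kb from Tbc1d30, was called higher (0.87). Each of the 5 flox calls was lost without flox control 1, flox control 2 or flox MCD 1, and that of Llph without any cre control library, among other libraries. Cdh2 also lost its call in the fits of FPKM values (-0.31 to -0.34), and Ly6k, Them6 and Dpp7 with voom.

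The genes whose profiles over the 12 libraries lay closest to the 6 were named by the root mean square distance between centred log2(CPM + 1) profiles, among 11999 other genes with a mean of at least 1 CPM. Ly6d lay closest to Apoa4, an apolipoprotein (0.481), to Gm10680 (0.486) and to Cidec, a lipid droplet protein (0.546). Gm10680 is antisense to Apoa4, and without knowledge of the strand its reads cannot be told apart from those of Apoa4. Apoa4 averaged 2300 ± 1240 CPM in cre MCD, 3220 ± 517 CPM in flox MCD, 227 ± 37.6 CPM in cre control and 151 ± 93.0 CPM in flox control libraries (SD, n = 3 each). Aqp4 lay closest to Cyp4a31, a fatty acid hydroxylase of the Cyp4a family (0.491), and then to the same Apoa4 and Gm10680.

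Uap1l1 also lay closest to Cyp4a31 (0.339), then to Anxa2, a membrane-binding annexin (0.423), and Ubd, a ubiquitin-like modifier (0.427). Cgref1 lay closest to 2010003K11Rik (0.509), Uap1l1 (0.513) and Anxa2 (0.520). Prss8 lay closest to Osbpl3, a lipid-transfer protein (0.316), Car2, a carbonic anhydrase (0.362), and Nat8, an acetyltransferase (0.373). Tbc1d30 lay closest to Pck2, the mitochondrial form of PEP carboxykinase (0.262), Scamp5, a membrane protein of secretory vesicles (0.266), and Srxn1, an antioxidant enzyme (0.276). Median distances to the whole pool ran from 0.858 for Tbc1d30 to 2.30 for Ly6d. Since the profiles are led by the diet, these distances describe the shared diet difference and its size in each group.

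Markers of other cells were summed beside the 6 genes, because in bulk liver a change in the number of cells of a type and a change in RNA per cell cannot be told apart. For the cells in which Ly6d is best known, 8 B cell markers summed to 1.22 to 1.48 CPM in cre MCD, 1.53 to 3.15 CPM in flox MCD, 3.43 to 4.92 CPM in cre control and 1.21 to 3.78 CPM in flox control libraries. The 8 squamous markers summed to 1.81 to 3.93 CPM in cre MCD, 2.21 to 4.47 CPM in flox MCD, 1.44 to 5.08 CPM in cre control and 2.54 to 4.47 CPM in flox control libraries, and 3 of them were at 0 throughout. The 6 markers of plasmacytoid dendritic cells summed to 54.6 to 98.5 CPM in cre MCD, 70.9 to 127 CPM in flox MCD, 71.6 to 95.2 CPM in cre control and 115 to 131 CPM in flox control libraries, and none of the 5 tested was called in either genotype. The part of these cells in the Ly6d values was not tested.

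For Aqp4, 6 astrocyte markers summed to 52.7 to 88.6 CPM in cre MCD, 127 to 134 CPM in flox MCD, 159 to 192 CPM in cre control and 167 to 239 CPM in flox control libraries. Nearly all of the sum was Slc1a2, which the liver also expresses, and Gjb6 was at 0 throughout. Of the 4 tested, Aldoc was called higher and Slc1a2 lower in cre mice (1.61 and -1.34), and none was called in flox mice. Gfap, which defines astrocytes, averaged 0.133 CPM in cre MCD, 0.0896 CPM in flox MCD, 0.101 CPM in cre control and 0.153 CPM in flox control libraries. The 7 gastric markers found summed to at most 1.48 CPM in any library with 3 at 0 throughout, and the 6 muscle markers to at most 1.36 CPM with 3 at 0 throughout.

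The summed levels of 3 other lists were higher in the MCD libraries than in the control libraries of the same genotype. The 8 markers of recruited macrophages summed to 113 to 156 CPM in cre MCD, 127 to 322 CPM in flox MCD, 21.4 to 25.4 CPM in cre control and 20.4 to 29.9 CPM in flox control libraries, and 4 of 8 were called higher in cre and 7 of 8 in flox mice. The cre count fell to 2 without cre control 2 or without the library labelled cre MCD 3. The 10 cholangiocyte markers (bile duct epithelium) summed to 86.9 to 137 CPM in cre MCD, 76.6 to 147 CPM in flox MCD, 35 to 78.1 CPM in cre control and 47.0 to 66.9 CPM in flox control libraries, with 1 of 9 tested called higher in cre and none in flox mice. That call was lost without any cre control library, cre MCD 2 or cre MCD 3. Over all alternatives 0 to 2 cholangiocyte markers were called higher in cre mice and 0 to 4 in flox mice. Krt19, Epcam and Krt7 of that list reached at most 2.58, 5.15 and 1.3 CPM in cre MCD libraries. In flox MCD libraries they reached at most 12.3, 4.97 and 3.14 CPM, so other markers made up most of the sum. The 8 stellate cell markers summed to 208 to 329 CPM in cre MCD, 325 to 391 CPM in flox MCD, 150 to 172 CPM in cre control and 154 to 184 CPM in flox control libraries, with 1 of 8 called higher in cre and 3 of 8 in flox mice. The flox count fell to 1 without any flox control library, flox MCD 1 or flox MCD 3, and the cre count to 0 without cre control 1, cre control 3, cre MCD 2 or cre MCD 3. The part of these cells in the rise of the 6 genes was not tested.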

How the data were processed

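Liver RNA of 12 libraries was analysed from deposited tables. Per the submitters' processing notes, reads were trimmed with cutadapt, checked with FastQC, aligned to mm10 with HISAT2 and quantified with StringTie, with edgeR also named, and no versions are given. The authors deposited estimated counts (expected counts, already whole numbers) per gene and transcript, and FPKM values normalised by the authors for length and depth.

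Of 55401 genes, 16523 passed filterByExpr by group, all 6 genes among them. They were scaled with TMM and tested with edgeR 4.0.16 (R 4.3.3), fitting all 12 libraries at once and estimating the 4 group means. Two-sided quasi-likelihood tests gave 5 comparisons, adjusted by Benjamini-Hochberg over all tested genes, with calls at 0.05. An SE is the log2 fold change over the square root of F, and 95% intervals use the t distribution of the fit. An exact permutation test of 3 against 3 libraries cannot pass the threshold and was not used. Depth behind low values was 0.0129 to 0.0299 CPM per count. The scripts were tested on simulated data.

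The members and the 19 lists were chosen with earlier results of these data known. Named beside the members were Lpcat3, 3 nearest profiles each, up to 4 called genes per list, or the highest one where none passed, and called neighbours. Kat8, Aqp9, St14 and Uap1 were added for their overlap or relation. Alternatives were DESeq2 1.42.0, limma 3.58.1 (voom, and log2(FPKM + 1) or log2(FPKM + 0.1)), other scaling and filters, a replicate block, and libraries left out.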

Additional observations from a re-analysis of the deposited data

How the results depend on the processing

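Each value was recomputed under 22 alternatives where the fit allowed. The median diet difference of the 6 genes ranged from 3.27 to 3.60 in cre mice and from 4.55 to 4.99 in flox mice when each library was left out, and was 2.20 in cre and 2.90 in flox mice on the log2(FPKM + 1) scale, with or without a filter of FPKM of at least 1, where the pseudocount shrinks low genes. No member was called between genotypes on either diet or in the difference of the diet effects, leave-one-out fits included (0 to 0), save for 1 with DESeq2 on the control diet (Aqp4, 1.69). Of the member values for genotype, 370 kept direction and call and 25 turned sign. Aqp4 on MCD was -0.0152 without a filter, -0.0188 with the replicate block, -0.0887, -0.0967 and -0.0887 in the FPKM fits, -0.0823 without cre MCD 3 and flox control 3, and -0.167 to 0.333 with 1 library left out. Prss8 on MCD was -0.0746, -0.093 and -0.0746 in the FPKM fits and -0.304 to 0.344 with 1 library left out. Ly6d on the control diet was 0.0118 with voom, 0.0218 with the replicate block, 0.122 with log2(FPKM + 0.1), 0.734 without both libraries and -0.58 to 0.737 with 1 left out, and Uap1l1 there was 0.138, 0.259 and 0.138 in the FPKM fits and -0.327 to 0.0385. In another comparison, MCD against control diet, Uap1 (outside the 6 genes) was 0.0359, 0.0407 and 0.0359 in the FPKM fits in flox mice. In cre mice Uap1 was 0.0923 without both libraries and -0.20 to 0.0925 with 1 left out. The cause was not tested. Same-numbered libraries of different groups correlated by -0.0428 to 0.517, with 8 of 18 pairs over 0.1. The 36 differently numbered pairs correlated by -0.541 to 0.196. For 8 of the 12 libraries the highest correlation was with a library of the same number. The main fit did not take the numbers as pairs, and the replicate block was 1 of the alternatives. What the shared numbers stand for was not tested. Across settings the genes called over the whole table ran from 319 to 2229 for diet in cre mice, 425 to 2547 for diet in flox mice, 0 to 189 between genotypes on MCD, 1 to 59 on the control diet and 0 to 99 for the difference of the diet effects.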
